A study of Mus musculus with 2 samples.

Results

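The genes described here are 10 vascular growth factors and receptors: the ligands Vegfa, Vegfb, Vegfc, Angpt1 and Angpt2, the receptor tyrosine kinases Kdr, Flt1, Flt4 and Tek, and the co-receptor Nrp1. They were chosen by symbol from the 31057 genes listed in the deposited tables, and each symbol had 1 entry there. All 10 passed the filter on low counts in each comparison of 1 of the 7 cell types with all other typed cells. A gene can pass it through the other cells alone. Flt1 and Flt4, for example, had 0 UMIs in perivascular-like and immune-like cells. The samples were 2 libraries of whole ovaries of female mice of the CD1 strain background at postnatal day 2, untreated, with no second condition, so every comparison is between cell types within these libraries. Each library pooled the ovaries of several pups of 1 mother, so the libraries were the replicates (n = 2) and the cells within a library were not. The assay reads the 3′ end of transcripts, and a random tag on each captured molecule (a unique molecular identifier, UMI) lets it be counted once.

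Blood vessels grow when endothelial cells, the cells that line them, respond to secreted factors of neighbouring cells. VEGF-A acts mainly through the receptor KDR (also called VEGFR2), while FLT1 binds VEGF-A and VEGF-B and limits how much VEGF-A reaches KDR, and VEGF-C acts through FLT4, which is best known from lymphatic vessels. Neuropilin-1 (NRP1) presents VEGF-A to KDR, and in the angiopoietin system ANGPT1 activates the endothelial receptor TEK (TIE2) while ANGPT2 often opposes it. In the ovary these factors are known for building the vessels that surround growing follicles and the corpus luteum.

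Replicate 1 held 4094 cells and 54471790 UMIs, and replicate 2 held 4847 cells and 59074480 UMIs, with medians of 8315.5 and 5798 UMIs per cell. After filtering, 3636 and 4371 cells were clustered without the 10 genes, and clusters were named from marker genes. The endothelial-like cells were few, 60 in replicate 1 and 33 in replicate 2, and all 8 endothelial markers were found in them in both libraries. There were 53 and 52 perivascular-like, 1658 and 614 granulosa-like, 1397 and 2501 interstitial-like, 186 and 294 mesothelial-like, 238 and 692 germ-like and 33 and 65 immune-like cells. The libraries differed in this makeup, with granulosa-like cells at 45.6% of replicate 1 and 14.0% of replicate 2, and their germ-like cells lay mostly in different clusters. Of the barcodes, 21 occurred in both libraries. In the endothelial-like sums, the 7 perivascular markers together reached 252 CPM in replicate 1 and 562 CPM in replicate 2, and the 6 interstitial markers 31.3 and 320 CPM, so replicate 2 carried more of both, and their part in the results below was not tested.

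Levels are given as CPM, the UMIs of a gene per 1000000 UMIs of that cell type in that library. Each cell type was tested against the sum of all other typed cells with edgeR's quasi-likelihood test, and a gene was called higher or lower when its log2 fold change exceeded 1 in size with a Benjamini-Hochberg adjusted p under 0.05 over all genes tested. In endothelial-like cells 7 of the 10 genes were called higher, against 9.79% of all genes, and the median log2 fold change of the 10 was 3.82, against −0.37 over all genes tested. The 7 were all 5 receptors, Kdr, Flt1, Flt4, Tek and Nrp1, and the ligands Angpt2 and Vegfc. Interstitial-like cells were higher for 4 genes (17.2% of all genes), mesothelial-like cells for 3 (10.9%), granulosa-like cells for 2 (17%), perivascular-like cells for 2 (4.9%) and immune-like cells for 1 (10%). Germ-like cells were higher for 0 genes (29.7%) and lower for 9 (31.2%). Elsewhere, granulosa-like cells were lower for 5 (24.7%), mesothelial-like cells for 4 (20.2%), interstitial-like cells for 3 (27.4%), endothelial-like cells for 1 (15.6%), immune-like cells for 1 (10.9%) and perivascular-like cells for 0 (5.72%). The shares of higher calls in granulosa-like and immune-like cells, 20% and 10% of the 10 genes, were near those of all genes. With germ-like cells left out of the reference, interstitial-like cells were higher for 2 genes (11.1% of all genes under that reference), mesothelial-like cells for 1 (7.39%) and granulosa-like cells for 0 (11.1%).

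**Figure D1:**
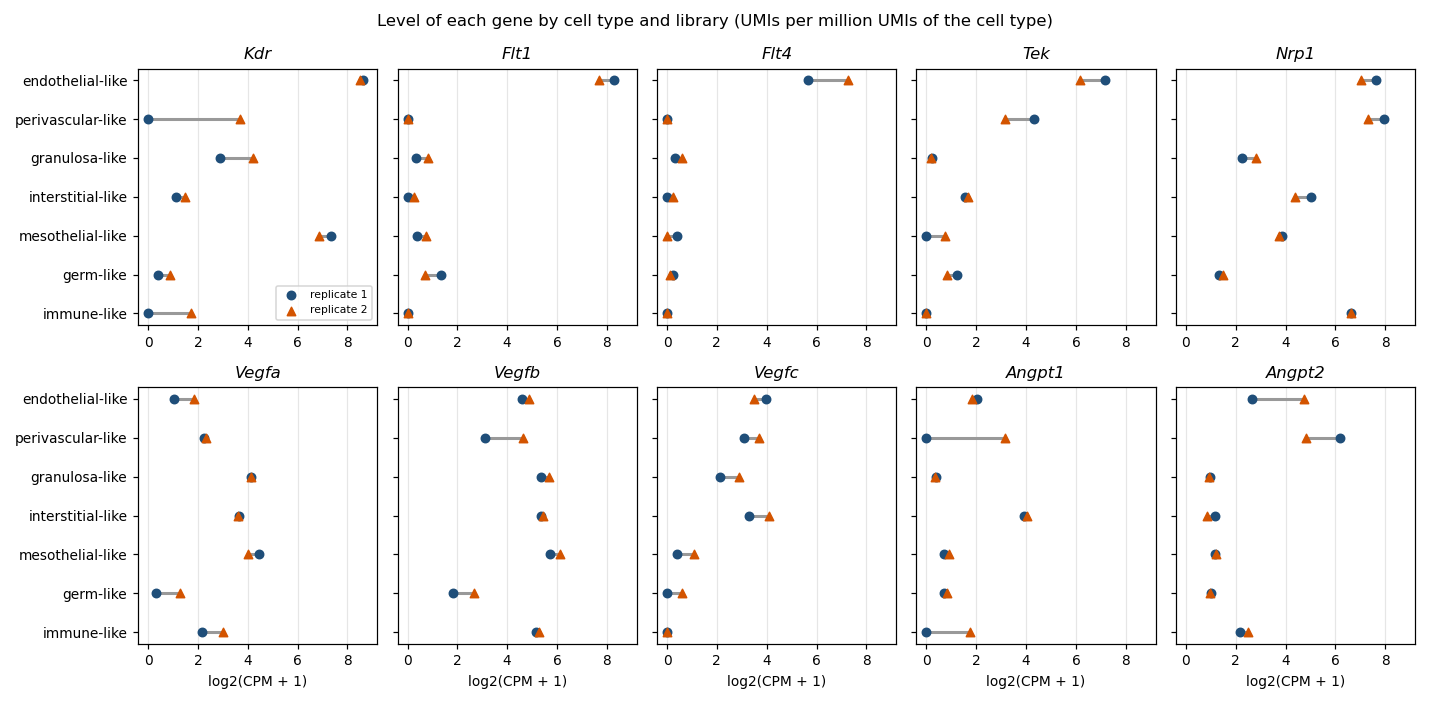
Level of each of the 10 genes, as log2(CPM + 1) on the x axis, in each cell type on the y axis, with a circle for replicate 1, a triangle for replicate 2 and a bar joining them. Flt1 and Flt4 stand high in endothelial-like cells alone, Kdr also in mesothelial-like cells, Nrp1 in endothelial-like, perivascular-like and immune-like cells, and Vegfa and Vegfb are spread over granulosa-like, interstitial-like and mesothelial-like cells.

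Kdr (ENSMUSG00000062960, chr5:75932827-75978458 of GRCm38, minus strand), the main signalling receptor for VEGF-A, had its highest level in endothelial-like cells, at 395 CPM (379 UMIs) in replicate 1 and 361 CPM (142 UMIs) in replicate 2. A UMI of Kdr was seen in all 60 endothelial-like cells of replicate 1 and in 27 of 33 cells of replicate 2 (81.8%, 95% Clopper-Pearson interval 64.5 to 93.0). When every cell was thinned to 2000 UMIs, the shares were 58.3% and 51.5%, closer to each other than before thinning. Against all other typed cells Kdr was higher by 5.06 ± 0.20 on the log2 scale (SE, adjusted p = 4.78e-08, edgeR). Intervals on shares cover counting error only.

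Kdr was not limited to the endothelial-like cells. Mesothelial-like cells, which form the surface epithelium of the ovary, had 163 CPM (514 UMIs) in replicate 1 and 114 CPM (512 UMIs) in replicate 2, and they were higher than all other typed cells by 4.21 ± 0.31 on the log2 scale (adjusted p = 0.000153, edgeR). A UMI was found in 68.8% (61.6 to 75.4) and 55.8% (49.9 to 61.5) of these cells, against 0.859% and 1.00% of interstitial-like cells. Their median depth was 12248.5 and 11013 UMIs, against 6515 and 5005 UMIs in interstitial-like cells. After thinning, the mesothelial-like shares were 25.8% and 13.9%. No single cell carried more than 5.06% of the Kdr UMIs of the mesothelial-like cells in either library. In the same cells Flt1 had 1 and 3 UMIs, Tek 0 and 3 and Flt4 1 and 0, so Kdr stood there without the other receptor kinases. The endothelial markers Cdh5 and Cldn5 had 0 UMIs in replicate 1 and 5 and 1 in replicate 2, Pecam1 had 10 in each library and Erg 0, whereas Esam, a junction protein, had 231 and 327. The list also holds Egfl7, Emcn and Plvap. Over all 8 endothelial markers, of which 3 and 2 had 0 UMIs, mesothelial-like cells summed to 88.4 and 92.6 CPM. Endothelial-like cells summed to 4740 and 4361 CPM. The level in endothelial-like cells was above that in mesothelial-like cells by 1.45 ± 0.39 on the log2 scale (adjusted p = 0.0157, edgeR, where 22.6% of all genes differed). The level in mesothelial-like cells was in turn above granulosa-like cells by 3.70 ± 0.42 (adjusted p = 6.47e-05, edgeR, where 20.4% of all genes differed).

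Mesothelial-like cells, which outnumbered endothelial-like cells, held 49.6% of all Kdr UMIs of typed cells in replicate 1 and 60.8% in replicate 2, and the endothelial-like cells held 36.5% and 16.9%. The order turned in replicate 1 when cells were assigned directly by their markers, with 34.2% and 51.2% from mesothelial-like and 48.8% and 20.9% from endothelial-like cells. That assignment named 91 and 166 cells as mesothelial-like, against 186 and 294 by cluster. It named 60 and 28 as endothelial-like, against 60 and 33. The part of these numbers in the turn was not tested. With every cell type given the same number of cells, endothelial-like cells led in both libraries, at 68.8% and 67.5% against 30.1% and 27.3%. Granulosa-like cells held 12.2% and 15.8% as recovered, at 6.46 and 17.5 CPM. Their values by cluster are a description with no test. Granulosa-like cluster 16, led by H19 and Gng13, had 23.4 and 34.4 CPM, and cluster 11, led by Cxcl1 and Cxcl10, had 15.5 and 26.9 CPM. Cluster 2, led by Hsd3b1 and Amh, had 0 UMIs in 331 cells of replicate 1, which allows a share of up to 0.906% of cells with a UMI and sets no limit on cells that express the gene, and 8 UMIs in 79 cells of replicate 2. Cluster 16 also passed the detection rule for 3 mesothelial markers, and the part of these in its Kdr level was not tested. Interstitial-like cells were lower by 3.69 ± 0.31 on the log2 scale (adjusted p = 5.50e-05, edgeR), at 1.17 and 1.76 CPM.

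**Figure D2:**
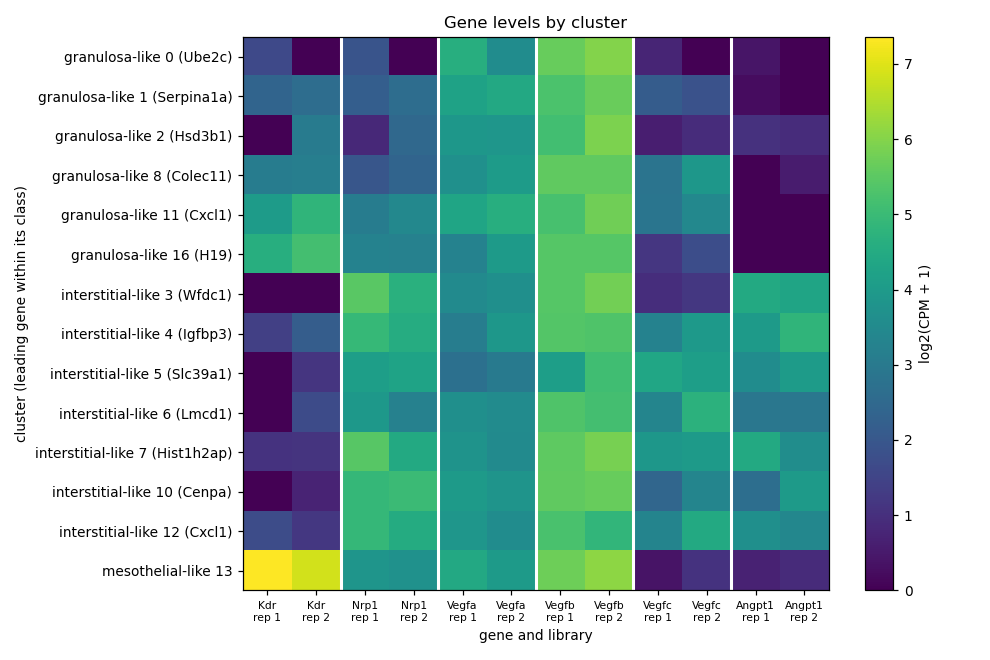
Level of 6 genes, as log2(CPM + 1) by colour, in each cluster of granulosa-like, interstitial-like and mesothelial-like cells (rows, with the leading gene of the cluster within its class) and each library (columns). Kdr is brightest in the mesothelial-like cluster, Vegfb is seen in every row, between 16.5 and 68.1 CPM, Vegfc is low in interstitial-like cluster 3, and Angpt1 is seen in the interstitial-like rows.

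Flt1 (ENSMUSG00000029648, chr5:147561604-147726011, minus strand), the decoy-like receptor for VEGF-A and VEGF-B, was seen mainly in endothelial-like cells. It had 308 CPM (295 UMIs) in replicate 1 and 203 CPM (80 UMIs) in replicate 2, in 91.7% and 60.6% of the cells. Every other cell type was read at or under 1.52 CPM in both libraries, and perivascular-like and immune-like cells had 0 UMIs in both. In those cells 3 UMIs would be 11.3 and 11.8 CPM (perivascular-like) and 10.4 and 7.01 CPM (immune-like). A level above 1.52 CPM is therefore not excluded there. Flt1 was higher in endothelial-like cells by 9.01 ± 0.32 on the log2 scale (adjusted p = 2.99e-08, edgeR), and these cells held 90.5% and 73.4% of its UMIs. Germ-like cells held 7.67% and 15.6%, from 25 and 17 UMIs.

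Tek (ENSMUSG00000006386, chr4:94739289-94874976, plus strand), the angiopoietin receptor, had 143 CPM (137 UMIs) in the endothelial-like cells of replicate 1 and 71.2 CPM (28 UMIs) in those of replicate 2, and was higher there by 6.91 ± 0.37 on the log2 scale (adjusted p = 3.23e-07, edgeR). Perivascular-like cells came next at 18.9 and 7.88 CPM, from 5 and 2 UMIs, and were lower than endothelial-like cells by a log2 difference of 3.14 ± 0.63 (adjusted p = 0.00790, edgeR, where 8.8% of all genes differed). Over the 8 endothelial markers, perivascular-like cells summed to 329 and 252 CPM, with 4 of the 8 at 0 in each library. Of these, Cldn5 had 0 UMIs in both libraries and Cdh5 had 0 and 1, while Emcn had 46 and 35, and their part in the Tek level was not tested. Interstitial-like cells had only 1.95 and 2.21 CPM of Tek but were many, so they held 10.7% of its UMIs in replicate 1 and 38.9% in replicate 2. The share of cells with a Tek UMI was 1.43% and 1.40% there, against 0.181% and 0.163% of granulosa-like cells with median depths of 9809 and 9172 UMIs. RNA from outside the cells was not estimated, and its part in these shares was not tested.

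The stretches just upstream of the starts of Kdr, Flt1 and Tek are shown because these receptor genes were high together in the endothelial-like cells. They run from 250 to 11 bases before the start given by RefSeq for GRCm38.p6, each on the strand of its gene, and hold no annotated exon. Flt4 and Nrp1 were also high in these cells. The same stretch of Flt4 overlaps 2 annotated exons and is not shown, and that of Nrp1 was not examined. Capitals mark GGAA or its reverse complement TTCC, the core letters that ETS-family factors such as those made from Erg and Fli1 bind.
Kdr, chr5:75978466-75978705, minus strand: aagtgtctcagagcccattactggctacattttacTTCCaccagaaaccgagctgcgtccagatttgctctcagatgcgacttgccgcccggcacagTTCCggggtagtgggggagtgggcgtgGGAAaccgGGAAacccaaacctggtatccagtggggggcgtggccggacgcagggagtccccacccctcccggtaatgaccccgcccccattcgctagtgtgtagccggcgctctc
Flt1, chr5:147726022-147726261, minus strand: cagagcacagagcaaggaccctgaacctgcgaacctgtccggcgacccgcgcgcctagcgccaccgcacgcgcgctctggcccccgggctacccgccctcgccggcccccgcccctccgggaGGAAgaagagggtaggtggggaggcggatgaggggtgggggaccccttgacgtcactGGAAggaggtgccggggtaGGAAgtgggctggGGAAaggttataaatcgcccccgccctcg
Tek, chr4:94739039-94739278, plus strand: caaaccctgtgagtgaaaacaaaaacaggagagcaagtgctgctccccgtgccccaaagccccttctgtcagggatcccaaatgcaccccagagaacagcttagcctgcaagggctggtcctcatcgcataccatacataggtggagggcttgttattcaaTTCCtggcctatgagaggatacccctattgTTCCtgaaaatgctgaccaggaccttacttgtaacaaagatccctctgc
The windows held 4, 4 and 2 matches, counted on both strands. Of 32851 RefSeq promoters, 92.7% held at least 1 match in the same window and 30.5% held at least 4, with a median of 3, so the counts do not set these genes apart. The G and C content was 62.1%, 70.8% and 50.8%, against a median of 52.1%. A match is a description of the letters and not of a bound site.

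Flt4 (ENSMUSG00000020357, chr11:49609263-49652739, plus strand), the VEGF-C receptor, was also called in endothelial-like cells, higher by 9.22 ± 0.56 on the log2 scale (adjusted p = 7.87e-07, edgeR). Its level there was 49.0 CPM (47 UMIs) in replicate 1 and 153 CPM (60 UMIs) in replicate 2. No other cell type was read above 0.526 CPM. Perivascular-like and immune-like cells had 0 UMIs in both libraries. In those cells 3 UMIs would be 11.3 and 11.8 CPM (perivascular-like) and 10.4 and 7.01 CPM (immune-like). A level above 0.526 CPM is therefore not excluded in them. The libraries differed in how the Flt4 UMIs of endothelial-like cells were spread. In replicate 1, 27 of 60 cells carried Flt4 and the highest cell had 4 UMIs. In replicate 2, 8 of 33 cells carried it and 1 cell had 30 UMIs, 50% of the total.

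That cell group was examined with 6 lymphatic genes, Prox1, Lyve1, Pdpn, Reln, Mmrn1 and Ccl21a, after the data were seen. In replicate 2, 4 endothelial-like cells carried at least 2 of them, with a median of 41247 UMIs per cell against 5287 UMIs in the other 29. These 4 cells held 53 of the 60 Flt4 UMIs, 8 of the 10 Angpt2 UMIs, 59 of the 142 Kdr UMIs and 6 of the 80 Flt1 UMIs. They also held 32 of 34 Prox1 UMIs and all 645 Ccl21a UMIs, but these genes were among those used to choose the cells. Deeper cells also meet that rule more easily. Replicate 1 had 1 such cell, with 1 UMI each of Prox1 and Mmrn1 and 1 of the 47 Flt4 UMIs. Outside these cells Flt4 was at 49.5 CPM in replicate 1 and 28.8 CPM in replicate 2, and it was higher than in all other typed cells by 8.09 on the log2 scale (adjusted p = 5.06e-08, edgeR). Cells marked as doublets had been removed before clustering, so the 4 cells were unmarked by construction. Whether they were single cells was not tested.

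Nrp1 (ENSMUSG00000025810, chr8:128358604-128503363, plus strand), which binds VEGF-A and also semaphorins, was called higher in more cell types than the other receptors. The microRNA gene Mir1903 overlaps it on the same strand. Perivascular-like cells had 246 CPM (65 UMIs) and 158 CPM (40 UMIs), endothelial-like cells 195 CPM (187 UMIs) and 130 CPM (51 UMIs), and immune-like cells 97.4 CPM (28 UMIs) and 98.1 CPM (42 UMIs). The perivascular-like and endothelial-like levels could not be told apart in a direct test (log2 difference 0.18 ± 0.32, adjusted p = 0.865, edgeR), nor could those of endothelial-like and immune-like cells (0.65 ± 0.34, adjusted p = 0.249, edgeR). Against all other typed cells the log2 differences were 4.17 ± 0.30 in perivascular-like cells (adjusted p = 0.000173), 4.17 ± 0.26 in endothelial-like cells (adjusted p = 9.44e-07) and 3.37 ± 0.30 in immune-like cells (adjusted p = 3.36e-05), all by edgeR.

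Within the immune-like cells, all 28 and 42 Nrp1 UMIs were in cluster 19, led within its class by Apoe and Lyz2 and with the complement genes C1qa, C1qb and C1qc among its leading genes, where 60% and 52.1% of cells carried it. Cluster 20, led by Arg1 and Ltb and holding the T cell genes Cd3g and Trbc2 among its leading genes, had 0 UMIs in its 8 and 17 cells. So few cells allow shares of up to 37.5% and 17.6% of cells with a UMI, so absence is not shown. Interstitial-like cells had 31.4 and 19.98 CPM of Nrp1, below immune-like cells by a log2 difference of 2.09 ± 0.35 (adjusted p = 0.000505, edgeR, where 26.6% of all genes differed) and above mesothelial-like cells, at 13.3 and 12.2 CPM, by 0.96 ± 0.31 (adjusted p = 0.0317, edgeR, where 32.3% of all genes differed). Granulosa-like cells followed at 3.71 and 6.04 CPM and germ-like cells at 1.52 and 1.84 CPM, each below its neighbour (adjusted p = 0.00657 and 0.00186, edgeR, with 72.8% of all genes different in the second pair). Interstitial-like cells were called higher than all other typed cells by 1.78 ± 0.30 (adjusted p = 0.00156, edgeR), but the value was −0.05 when the other cell types were weighted equally and 0.68 (adjusted p = 0.125) with thinned cells. By number they held the largest share of Nrp1 UMIs, 43.4% and 52.7%.

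Many endothelial-like cells carried UMIs of several receptors. Each single receptor was found in 45% (Flt4) to 100% (Kdr) of these cells in replicate 1 and in 24.2% (Flt4) to 81.8% (Kdr) in replicate 2. Whether receptors shared a cell more often than these shares alone would give was not tested. Of the 60 cells of replicate 1, 55 carried at least 1 UMI of 3 or more of the 5 receptors (91.7%), and of the 33 cells of replicate 2, 18 did (54.5%), at median depths of 13607 and 6205 UMIs. In perivascular-like and interstitial-like cells 0 cells did so in either library, and in granulosa-like cells 0 of 1658 and 1 of 614 did. Since every endothelial-like cell of replicate 1 carried Kdr, overlap with Kdr can be read only in replicate 2, where 27 of 33 cells carried it. There it was found in 8 of 8 cells with Flt4, 19 of 20 with Flt1, 12 of 14 with Tek and 19 of 22 with Nrp1.

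**Figure D3:**
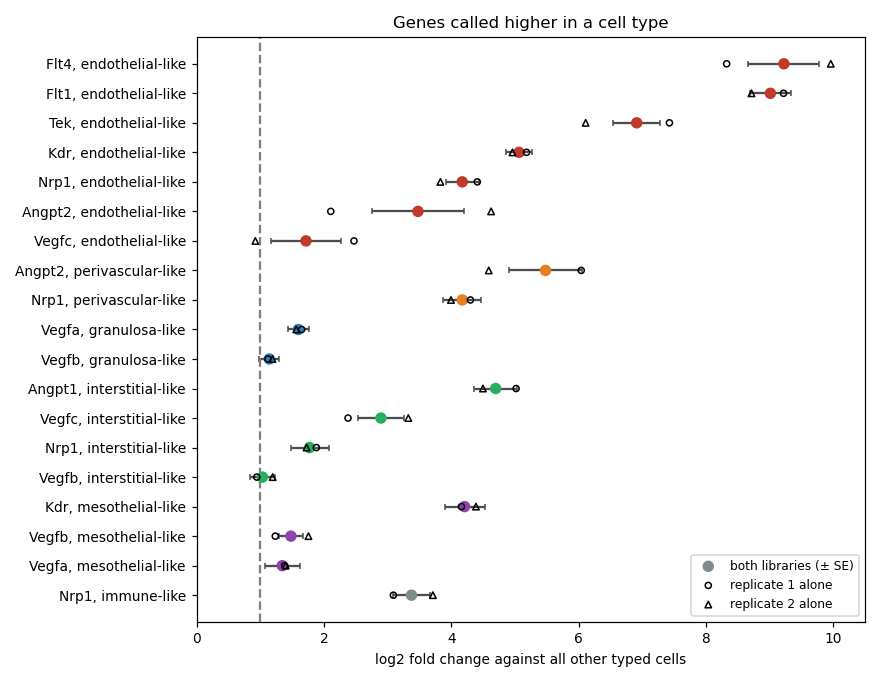
Log2 fold change against all other typed cells (x axis) for the 19 pairs of gene and cell type called higher (y axis), with filled points and bars for both libraries together (± SE) and open circles and triangles for replicate 1 and replicate 2 alone. The dashed line marks the threshold of 1, and the largest values are those of Flt4 and Flt1 in endothelial-like cells, at 9.22 and 9.01.

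Among the ligands, Vegfa (ENSMUSG00000023951, chr17:46016993-46032369, minus strand), the central angiogenic factor, was spread over the epithelial and stromal cells of the ovary. Its level was 20.6 CPM (65 UMIs) and 15.1 CPM (68 UMIs) in the mesothelial-like cells of replicates 1 and 2, 16.7 CPM (329 UMIs) and 16.3 CPM (124 UMIs) in granulosa-like cells, and 11.4 CPM (117 UMIs) and 11.3 CPM (180 UMIs) in the interstitial-like class. The mesothelial-like and granulosa-like levels could not be told apart (log2 difference 0.20 ± 0.37, adjusted p = 0.780, edgeR), nor could the granulosa-like and interstitial-like levels (0.49 ± 0.36, adjusted p = 0.308, edgeR). Mesothelial-like cells also passed the detection rule for 4 granulosa markers. The 6 granulosa markers together reached 1017 and 1015 CPM in them, against 2131 and 1725 CPM in granulosa-like cells. The part of this overlap in the mesothelial-like levels of Vegfa and Vegfb was not tested. Endothelial-like cells had 1 UMI in each library, 1.04 and 2.54 CPM, and were lower than all other typed cells by 2.38 ± 0.79 on the log2 scale (adjusted p = 0.0431, edgeR). Germ-like cells had 0.243 and 1.41 CPM and were lower by 3.87 ± 0.69 (adjusted p = 0.00683, edgeR).

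Vegfa was called higher in granulosa-like cells by 1.60 ± 0.16 (adjusted p = 0.000697, edgeR) and in mesothelial-like cells by 1.34 ± 0.28 (adjusted p = 0.00820, edgeR). Both calls were against a reference that includes the germ-like cells, which hold many UMIs and little Vegfa. With germ-like cells left out, an alternative added after the data were seen, the values were 0.43 (adjusted p = 0.0713) and 0.52 (adjusted p = 0.153). With cells thinned to 2000 UMIs they were 0.67 (adjusted p = 0.122) and 0.63 (adjusted p = 0.441). Within granulosa-like cells the level ran from 8.62 to 23.2 CPM over the 6 clusters in replicate 1 and from 10.99 to 23.7 CPM in replicate 2.

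Vegfb (ENSMUSG00000024962, chr19:6982473-6987651, minus strand), a ligand of FLT1 known for roles in tissue metabolism more than in sprouting, was found in every cell type. It had 52.3 CPM (165 UMIs) and 68.1 CPM (306 UMIs) in mesothelial-like cells, 40.001 CPM (787 UMIs) and 49.5 CPM (377 UMIs) in granulosa-like cells and 40.2 CPM (412 UMIs) and 41.8 CPM (664 UMIs) in interstitial-like cells. Immune-like cells had 34.8 and 37.4 CPM, endothelial-like cells 22.9 and 28.0 CPM and perivascular-like cells 7.56 and 23.7 CPM, from 2 and 6 UMIs. No neighbours in this order could be told apart. Mesothelial-like cells were above endothelial-like cells by a log2 difference of 1.29 ± 0.38 (adjusted p = 0.0261, edgeR, where 22.6% of all genes differed) and above perivascular-like cells by 2.07 ± 0.54 (adjusted p = 0.0223, edgeR, where 13.6% of all genes differed). Germ-like cells, at 2.56 and 5.35 CPM, were below perivascular-like cells by a log2 difference of 1.97 ± 0.74 (adjusted p = 0.0461, edgeR, where 43.1% of all genes differed). The calls of Vegfb in granulosa-like (1.14 ± 0.16, adjusted p = 0.00188), interstitial-like (1.03 ± 0.20, adjusted p = 0.00312) and mesothelial-like cells (1.48 ± 0.19, adjusted p = 0.00126, all edgeR) became 0.01, −0.15 and 0.66 without germ-like cells in the reference, and 0.22, 0.57 and 0.75 with thinned cells.

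Vegfc (ENSMUSG00000031520, chr8:54077606-54187096, plus strand), the lymphatic growth factor, had 14.6 CPM (14 UMIs) and 10.2 CPM (4 UMIs) in endothelial-like cells, 8.79 CPM (90 UMIs) and 15.9 CPM (253 UMIs) in interstitial-like cells and 7.56 CPM (2 UMIs) and 11.8 CPM (3 UMIs) in perivascular-like cells, and none of these could be told apart. Granulosa-like cells had 3.35 CPM (66 UMIs) and 6.44 CPM (49 UMIs), and mesothelial-like cells 1 and 5 UMIs. Immune-like cells had 0 UMIs in both libraries, where 3 UMIs would be 10.4 and 7.01 CPM. Interstitial-like cells were higher than all other typed cells by 2.89 ± 0.36 on the log2 scale (adjusted p = 0.000386, edgeR). Endothelial-like cells were higher by 1.72 ± 0.55 (adjusted p = 0.0358, edgeR), and 0.84 (adjusted p = 0.350) without germ-like cells in the reference. The call was also lost with cells thinned to 2000 UMIs (0.85, adjusted p = 0.705) and with scaling to total UMIs only (1.54, adjusted p = 0.0569). It was 2.47 in replicate 1 alone and 0.92 in replicate 2 alone.

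Vegfc differed between clusters of the same class. In interstitial-like cluster 3, led by Wfdc1 and Rgcc, 1 UMI was found in 116 cells of replicate 1 and 2 UMIs in 188 cells of replicate 2 (0.951 and 1.28 CPM), while the other 6 interstitial-like clusters had 4.40 to 19.3 CPM in replicate 1 and 9.13 to 25.6 CPM in replicate 2. Among granulosa-like cells, cluster 8, led by Colec11 and Hspa1a, held 21 of 66 and 30 of 49 UMIs, and cluster 11 held 22 and 12. The other 4 granulosa-like clusters were at or under 3.38 CPM in both libraries. These clusters were formed from the same cells, so the values are a description with no test.

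Angpt1 (ENSMUSG00000022309, chr15:42424723-42676977, minus strand), the agonist of TEK, was found mainly in interstitial-like cells. They had 14.0 CPM (143 UMIs) in replicate 1 and 15.4 CPM (244 UMIs) in replicate 2, and held 87.2% and 88.4% of all its UMIs. With every cell type given the same number of cells, these shares were 49.0% and 42.4%. Interstitial-like cells were higher than all other typed cells by 4.70 ± 0.34 on the log2 scale (adjusted p = 2.78e-05, edgeR). Granulosa-like cells had 6 UMIs in 1658 cells and 2 UMIs in 614 cells, 0.305 and 0.263 CPM, and were lower by 4.03 ± 0.38 (adjusted p = 0.000553, edgeR). Endothelial-like cells had 3 and 1 UMIs and perivascular-like cells 0 and 2, and perivascular-like cells could not be told apart from interstitial-like cells (adjusted p = 0.195, edgeR). Among interstitial-like clusters, cluster 3 had 20.9 and 18.6 CPM, and cluster 4, led by Igfbp3 and Tagln, 15.1 and 27.2 CPM. Cluster 7, led by Hist1h2ap and Pclaf, had 21.1 and 11.1 CPM. Cluster 3, summed over its cells, thus had Angpt1 beside a low Vegfc level that rests on 1 and 2 UMIs. Angpt1 was seen in 14.7% and 15.4% of its cells, and the 2 genes were not compared within single cells. The uncharacterised gene Gm17473 overlaps Angpt1 on the opposite strand.

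Angpt2 (ENSMUSG00000031465, chr8:18690263-18741562, minus strand), the context-dependent antagonist of TEK, was highest in perivascular-like cells, the pericytes and smooth muscle cells of vessel walls. They had 71.8 CPM (19 UMIs in 13 of 53 cells) in replicate 1 and 27.6 CPM (7 UMIs in 6 of 52 cells) in replicate 2, and were higher than all other typed cells by 5.48 ± 0.58 on the log2 scale (adjusted p = 0.00108, edgeR). Endothelial-like cells had 5.21 CPM (5 UMIs) and 25.4 CPM (10 UMIs) and were higher by 3.48 ± 0.73 (adjusted p = 0.00456, edgeR). The value was 2.43 (adjusted p = 0.0241) without the cells that carried lymphatic genes, and the call was lost with cells thinned to 2000 UMIs (2.74, adjusted p = 0.144). It was 2.11 in replicate 1 alone and 4.63 in replicate 2 alone. The perivascular-like and endothelial-like levels could not be told apart in a direct test (log2 difference 1.90 ± 0.67, adjusted p = 0.109, edgeR). Rgs5, a defining perivascular marker, had 21 and 85 UMIs in the endothelial-like cells, and its part in their Angpt2 level was not tested. In granulosa-like, interstitial-like, mesothelial-like and germ-like cells Angpt2 lay between 0.819 and 1.34 CPM in both libraries. Mcph1 overlaps Angpt2 on the opposite strand, and the assay keeps the strand.

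Weighted by the cells recovered, the cell type with the largest share of Vegfa and Vegfb UMIs differed between the 2 libraries, while interstitial-like cells led for Vegfc and Angpt1 in both. Of the Vegfa UMIs, granulosa-like cells held 63.5% in replicate 1 but 29.8% in replicate 2. The share of interstitial-like cells was 22.6% and 43.3%, and that of mesothelial-like cells 12.5% and 16.3%. For Vegfb the granulosa-like share was 54.7% and 24.7% and the interstitial-like share 28.6% and 43.5%. The granulosa-like cells themselves numbered 1658 in replicate 1 and 614 in replicate 2, while their CPM of both genes differed less. For Vegfc the interstitial-like share was 52.0% and 77.1%. The 78 and 72 Angpt2 UMIs were spread over the cell types. Perivascular-like and granulosa-like cells each held 24.4% and 9.72%, and interstitial-like cells 16.7% and 18.1%. Germ-like cells, where the level was near 1 CPM but the cells were deep, held 21.8% and 37.5%. The endothelial-like cells themselves held 0.193% and 0.240% of Vegfa, 1.53% and 0.720% of Vegfb and 8.09% and 1.22% of Vegfc UMIs.

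When every cell type was given the same number of cells, the leading source changed in at least 1 library for 4 of the 5 ligands. This weighting compares UMIs per cell, so deeper cell types weigh more. Mesothelial-like cells then led for Vegfa, with 48.9% and 35.2%, and for Vegfb, with 34.9% and 36.8%. The part of the granulosa markers found in these cells, given above, was not tested. Endothelial-like cells led for Vegfc with 61.3% and 30.5%, against 16.9% and 25.5% from interstitial-like cells. These endothelial-like values rest on 14 and 4 UMIs. In CPM they were 14.6 and 10.2, against 8.79 and 15.9 in interstitial-like cells, so the order turned in replicate 2. For Angpt2, perivascular-like cells led in replicate 1 with 61.2% and endothelial-like cells in replicate 2 with 55.7%. Angpt1 was still led by interstitial-like cells.

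**Figure D4:**
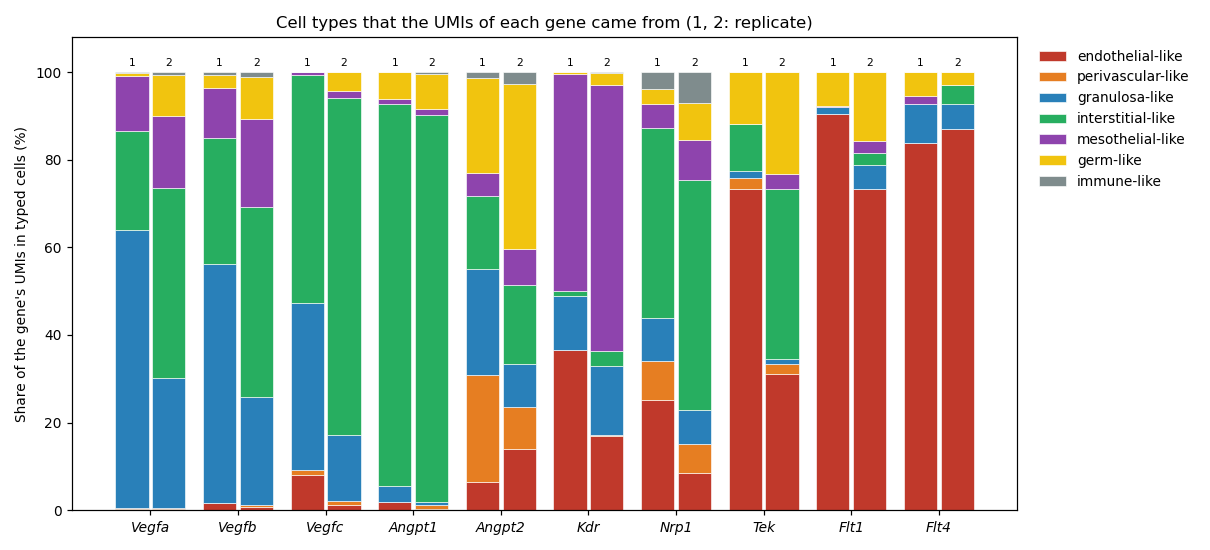
Share of each gene's UMIs in typed cells (y axis, percent) that came from each cell type (colours), with a bar for each library (1, 2: replicate). Vegfa and Vegfb come mostly from granulosa-like, interstitial-like and mesothelial-like cells, Angpt1 from interstitial-like cells, and Kdr mostly from mesothelial-like and endothelial-like cells.

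Further genes of these pathways were read from 5 lists. Of 13 other genes of the VEGF and angiopoietin systems, 6 were higher in endothelial-like cells (9.79% of all genes) and 1, Sema3c, was lower (15.6%), with a median log2 fold change of 0.32. The largest fold was that of Tie1, the partner receptor of TEK, at 200 and 135 CPM (log2 fold change 7.99 ± 0.32, adjusted p = 4.78e-08, edgeR), and the smallest that of Sema3f, at 13.6 and 15.3 CPM (2.40 ± 0.48, adjusted p = 0.00360, edgeR). Nrp2, a co-receptor for VEGF-C, was higher in endothelial-like cells by 2.70 ± 0.29 (adjusted p = 5.77e-05, edgeR) and in interstitial-like cells by 2.08 ± 0.29 (adjusted p = 0.000679, edgeR).

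Pgf, a FLT1 ligand, was among the 6, from 1 and 6 UMIs in endothelial-like cells (3.35 ± 1.01, adjusted p = 0.0282, edgeR). It was also higher in interstitial-like cells and was the 1 gene of the 13 higher in perivascular-like cells (4.9% of all genes), from 6 and 3 UMIs. Vegfd, a further ligand of FLT4, had 8.89 and 8.07 CPM in interstitial-like cells and was higher there by 3.16 ± 0.33 (adjusted p = 0.000147, edgeR), as was Angpt4 at 5.27 and 4.85 CPM (5.16 ± 0.64, adjusted p = 0.000359, edgeR). Both had 0 UMIs in the endothelial-like cells, where 3 UMIs would be 3.13 and 7.63 CPM. Neither was called lower there (adjusted p = 0.0749 for Vegfd and 0.189 for Angpt4, edgeR). Interstitial-like cells were higher for 5 of the 13 genes in all (17.2% of all genes) and lower for 5 (27.4%). Granulosa-like cells were higher for 4 (17%), Sema3e, Sema3c, Ccbe1 and Sema3a, of which Ccbe1 helps to process VEGF-C and had 16.9 and 15.6 CPM (1.87 ± 0.17, adjusted p = 0.000537, edgeR). Granulosa-like cells were lower for 3 (24.7%), Ptprb, Angpt4 and Tie1. Mesothelial-like cells were higher for 3 (10.9%), Sema3a, Sema3f and Ptprb, and lower for 4 (20.2%), Plxnd1, Angpt4, Nrp2 and Tie1.

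Of 17 regulators of endothelial cells and sprouting, 15 were higher in endothelial-like cells (9.79% of all genes) and 0 lower (15.6%), with a median of 6.45. The largest fold was that of Aplnr, the apelin receptor, at 312 and 181 CPM with 3 UMIs in all other typed cells together, and the smallest that of Ephb4, a venous receptor, at 76.1 and 63.6 CPM (2.07 ± 0.26, adjusted p = 0.000155, edgeR). Dll4, the Notch ligand of sprout tips, had 98.0 and 81.4 CPM and Apln 65.7 and 68.7 CPM, while Klf2 and Hey1 did not pass (0.75 ± 0.30 and −1.51 ± 0.55). Mesothelial-like cells, which had Kdr, were higher for 0 of the 17 (10.9%) and lower for 4 (20.2%). Of 6 lymphatic genes, 2 were higher in endothelial-like cells (9.79% of all genes), Mmrn1 with 6 and 55 UMIs and Prox1 with 4 and 34. The median of the 5 tested was 2.45. In replicate 2, the 4 endothelial-like cells with at least 2 lymphatic genes held all 55 Mmrn1 UMIs and 32 of the 34 Prox1 UMIs. Germ-like cells were also higher for 2 of the 6 (29.7% of all genes), Reln by 3.59 ± 0.25 (adjusted p = 0.000710) and Prox1 by 2.57 ± 0.24 (adjusted p = 0.00121, both edgeR). They were lower for 1 (31.2%), Lyve1. Of 15 genes of the response to low oxygen, 5 were higher in endothelial-like cells (9.79% of all genes) and 1, Bnip3, lower (median 0.49), from Epas1, a hypoxia-inducible factor, at 164 and 114 CPM (4.995 ± 0.34, adjusted p = 2.01e-06, edgeR) to Ndrg1 (1.42 ± 0.29, adjusted p = 0.00395, edgeR). Mesothelial-like cells were higher for 4 of the 15 (10.9%), Car9, Egln3, Ndrg1 and Ldha, and lower for 2 (20.2%), Epas1 and Bnip3. Of 7 inhibitors of angiogenesis, 4 were higher in endothelial-like cells (9.79% of all genes), Adamts1, Sparc, Col18a1 and Timp3, and 3 lower (15.6%), Serpinf1, Thbs2 and Thbs1, with a median of 1.35. Perivascular-like and interstitial-like cells were each higher for 4 of the 7 too (4.9% and 17.2% of all genes) and each lower for 1 (5.72% and 27.4%).

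Over the 14 sums of cell type and library, which share libraries and depth, the genes most like each receptor in level were named by Pearson's r of log2 levels among 14058 genes. For Flt1 these were Sox17, Aplnr and Gpihbp1 (0.999 each), for Tek Pcdh12, Vwf and Ecscr (0.995, 0.989 and 0.969), and for Kdr Adgrf5, Edn1 and Unc45b (0.979, 0.965 and 0.957). Nrp1 was most like Rcsd1, Mef2c and Tacc1 (0.966, 0.960 and 0.959) and Flt4 most like Sez6l2, Gm16104 and Paqr5 (0.992, 0.988 and 0.987). Among the ligands, Angpt2 was most like the perivascular genes Rgs5, Higd1b and Ndufa4l2 (0.963, 0.946 and 0.944), Vegfa most like C1qtnf4, Gata4 and Soat1 (0.939, 0.937 and 0.935), Vegfb like Tnpo3, Vegfc like Zeb1 and Angpt1 like Gm11627 (0.956, 0.961 and 0.979).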

How the data were processed

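The authors made the deposited UMI counts with Cell Ranger 3.0.2 on genome build GRCm38, per the labels, as whole numbers per gene and cell without normalization. The labels and the methods name different versions of the reagent kit. Replicate 1 had 54471790 UMIs and replicate 2 had 59074480 UMIs.

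Filters of 500 genes or more and no more than 10% mitochondrial UMIs left 3738 and 4464 cells. Scrublet marked 102 and 93 doublets, which were removed, at the score threshold of replicate 1 (0.224) in both libraries, because that of replicate 2 (0.519) marked 2 cells. Clustering with scanpy 1.11.5 (1977 variable genes without the genes studied, 30 components, resolution 1) gave 22 clusters. A marker counted as detected at 2 times its geometric mean over clusters and in 10% of cells, and a cluster took a name from 3 or more detected markers. A cluster of 11 and 120 cells with erythroid markers and few UMIs stayed unnamed and entered no comparison.

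For each library, the UMIs of a cell type were added up. The sums were tested by the quasi-likelihood test of edgeR 4.0.16 (R 4.3.3, with filterByExpr and TMM) on 15234 to 16129 genes. The code was also run on simulated counts, drawn independently with a common spread for all genes. These lack the shared pups and droplet run of the real sums, so they cannot show how the test behaves on them. Levels of 2 cell types were compared in 1 fit over all 7 types (14289 genes, 21 pairs). Sums of 1 library come from the same pups and droplet run. Their deviations correlated by 0.010 to 0.277 over 14058 genes. A replicate block was fitted as an alternative for the tests against all other typed cells. The fit over all 7 types held no such block. Its comparisons of 2 cell types therefore treated sums of 1 library as independent. P-values rest on the spread between 2 libraries, which edgeR estimates for each gene with help from the other genes. They therefore do not measure a gene's own spread alone. In the fit over all 7 types that spread was also shared over the types. Likeness used log2(CPM + 10) of genes with at least 100 UMIs. Gene positions are from the annotation of GRCm38, and promoter sequences from RefSeq, which matched 8 of the 10 genes. Angpt1 and Angpt2 had no entry.

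The genes and lists were chosen with earlier results of these data known. All 10 genes are named. Further genes are the called ones of largest and smallest fold in each list, and others named were chosen after their values were seen. Alternatives were DESeq2 1.42.0, total scaling, no filter, equal weights, cells thinned to 2000 UMIs, cells assigned directly by marker and each library left out. References without germ-like cells and endothelial-like cells without lymphatic-marked cells were added after the data were seen.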

Additional observations from a re-analysis of the deposited data

Results flagged for a closer look

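Vegfa and Vegfb had a few UMIs in the cells that were given no type and entered no comparison, 5 UMIs of Vegfa and 6 UMIs of Vegfb. These are the cells of cluster 14, 11 in replicate 1 and 120 in replicate 2, with medians of 1714 and 685.5 UMIs per cell, led by haemoglobin genes. They were noted because both counts lie above the 3 UMIs that a count of 0 allows. Their cause was not tested.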

How the results depend on the processing

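Of 196 recomputed values of the 19 calls, 173 stayed past the threshold, 21 did not and 2 changed sign. The values with 1 library left out, 19 for each library, carried no p-value. They were held to the fold threshold alone, here and in the next sentence. Kdr, Flt1, Flt4, Tek and Nrp1 in endothelial-like cells, Kdr in mesothelial-like, Angpt2 and Nrp1 in perivascular-like, Nrp1 in immune-like and Angpt1 and Vegfc in interstitial-like cells kept their calls under all alternatives run. The replicate block changed no call, giving 7 genes in endothelial-like cells, and DESeq2 changed none of the 19. The direct assignment by markers had no immune-like class. Without germ-like cells in the reference (added after the data were seen), Vegfb in interstitial-like cells turned to −0.15. Granulosa-like cells were then higher for 0 genes (11.1% of all genes under that reference), interstitial-like for 2 (11.1%) and mesothelial-like for 1 (7.39%). With cells thinned to 2000 UMIs these counts were 0, 2 and 1. With the other types weighted equally, granulosa-like cells were higher for 1 gene and Nrp1 in interstitial-like cells was at −0.048. Germ-like cells were higher for 0 genes by edgeR and DESeq2, and for 0 at an unadjusted p under 0.05 by edgeR. By fold alone with 1 library left out, perivascular-like cells were higher for 4 to 4 genes and immune-like cells for 2 to 2. These counts use no p threshold, so they cannot be compared with the calls or with the shares of all genes given above. No share of all genes is given for the counts with the replicate block, thinned cells or equal weights either. Whether these counts stand apart from all genes was not tested.

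With every cell type given the same number of cells, interstitial-like cells held 21.2% of Vegfc and 45.7% of Angpt1 UMIs and germ-like cells 9.68% of Angpt2 UMIs. With direct assignment, interstitial-like cells held 89.0% of Angpt1 UMIs. Thinning lowered the shares of cells with a UMI to 3.01% for Vegfa and 9.02% for Vegfb (mesothelial-like), 2.50% for Vegfc, 54.9% for Kdr, 39.0% for Flt1, 10.2% for Flt4 and 17.2% for Tek (endothelial-like), 35.0% for Nrp1 (perivascular-like) and 3.02% for Angpt1 (interstitial-like), as fewer UMIs per cell were read. The 2 libraries and the few endothelial-like and perivascular-like cells limit what can be told: a gene not called there is not shown to be absent.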
